A study of Mus musculus with 14 samples.

Results

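The 9 chemokine receptors described here (Ccr2, Ccr6, Ccr7, Ccr9, Cxcr3, Cxcr4, Cxcr5, Cxcr6 and Cx3cr1) were measured in splenocytes of mice with and without functional STING. They were chosen by name as receptors of lymphocytes and monocytes, and every probe whose accession belongs to one of the 9 genes in RefSeq was used. This gave 13 probes, 2 each for Ccr7, Cxcr4, Cxcr6 and Cx3cr1 and 1 for each of the other 5 genes. All 9 genes were among the 24908 genes tested, and all 13 probes were well above background on all 14 arrays. Splenocytes of 7 WT mice (C57BL/6) and 7 Sting gt/gt mice (the golden ticket allele, Tmem173gt) were each hybridised to an Agilent array of their own in a single colour. The labels give the mice of both groups an age of 10 to 14 weeks, which the methods give as the age at injection. All had received chicken collagen type II (CII) in complete Freund's adjuvant (CFA) in the skin 2 weeks before the spleen was taken, so no uninjected animal entered the comparison. The golden ticket allele is a chemically induced point mutation in the gene of STING, the sensor of cyclic dinucleotides, and every cell of these mice carries it. The methods give C57BL/6 as the background in which this allele was induced. Per the study's methods, red cells were lysed and the WT mice came from another supplier than the Sting gt/gt mice, so genotype and origin of the mice cannot be told apart.

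Chemokine receptors are G protein-coupled receptors that steer leukocytes along gradients of small secreted proteins, the chemokines. In the spleen, Cxcr5 draws B cells and follicular helper T cells towards Cxcl13 in the follicle, while Ccr7 holds T cells and dendritic cells near Ccl19 and Ccl21a in the T cell zone. Other receptors mark cells bound for inflamed tissue (Cxcr3, Cxcr6), the gut (Ccr9) or the bone marrow niche (Cxcr4), and Ccr2 and Cx3cr1 divide classical from patrolling monocytes.

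Levels are given as the log2 signal of a probe minus the 75th percentile of its array, so that 0 stands for that percentile. Signals of different probes were not compared as amounts of RNA. Where a signal was subtracted from another, only the change of that gap between arrays was read. Each array had between 30781 and 34400 probes well above background. Sting1, which encodes STING, had a log2 signal of 2.35 to 2.85 in WT mice and 2.45 to 2.77 in Sting gt/gt mice, and a point mutation need not alter its RNA, so this level does not check the labels. Replicates 1 to 3 of both genotypes were scanned on one day (scan day 1) and replicates 4 to 7 on another (scan day 2). The arrays split by scan day along the leading principal component (43% of the variance), with all 6 of scan day 1 below 0 and all 8 of scan day 2 above it. On scan day 2 the 4 WT arrays lay on 2 slides and the 4 Sting gt/gt arrays on 1 other slide, so slide and genotype cannot be told apart there. The markers of B cells, T cells and monocytes that were tested were well above background on all 14 arrays.

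Promoter sequence is shown for 5 receptors: Ccr9 and Cxcr3, whose signals moved together most closely over the arrays, Cxcr4 and Cxcr6, whose signals moved most strongly apart, and Cx3cr1, whose genotypes separated on scan day 2. Each line gives the 120 bases before the RefSeq start site, 5′ to 3′ on the strand of the gene (GRCm38.p6). The windows lie at chr9:123767091-123767210 on the plus strand for Ccr9, chrX:101734148-101734267 on the minus strand for Cxcr3, chr1:128592300-128592419 on the minus strand for Cxcr4, chr9:123806357-123806476 on the plus strand for Cxcr6, and chr9:120068297-120068416 on the minus strand for Cx3cr1. Capitals mark matches, on either strand, to 6 motifs. These were the TATA box, with the letters TATAAA, and the GC box, with the letters GGGCGG. The RUNX motif was searched as TGTGGT and the E-box as CANNTG. The CCAAT box was searched by the letters of its name, and the core of the interferon-stimulated response element as GAAANNGAAA.
Ccr9: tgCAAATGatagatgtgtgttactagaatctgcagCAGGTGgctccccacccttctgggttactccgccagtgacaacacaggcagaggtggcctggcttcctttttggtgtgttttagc
Cxcr3: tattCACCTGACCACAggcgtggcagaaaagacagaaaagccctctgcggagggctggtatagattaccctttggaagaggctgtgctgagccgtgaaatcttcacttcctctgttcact
Cxcr4: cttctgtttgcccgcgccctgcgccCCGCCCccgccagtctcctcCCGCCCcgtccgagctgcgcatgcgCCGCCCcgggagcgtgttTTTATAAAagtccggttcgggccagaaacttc
Cxcr6: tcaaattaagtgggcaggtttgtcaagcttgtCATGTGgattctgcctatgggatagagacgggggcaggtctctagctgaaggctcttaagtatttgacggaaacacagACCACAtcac
Cx3cr1: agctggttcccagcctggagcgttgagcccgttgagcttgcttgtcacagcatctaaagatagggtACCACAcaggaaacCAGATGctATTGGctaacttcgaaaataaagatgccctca

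Only Cxcr4 held a GC box or a TATA box in this window: it had 3 GC boxes and a pair of overlapping TATA matches, 1 on each strand, that began 32 and 30 bases before the start. Over all 32851 windows of the same length, 26.5% held the GC box and 6.34% the TATA box. The RUNX motif, held by 6.72% of all windows, was found in Cxcr3, Cxcr6 and Cx3cr1. An E-box, held by 40.2% of all windows, was found in 6 of the 7 receptors that had a window in the table, and the CCAAT box, held by 21.3%, in Cx3cr1. None of the 7 held the core of the interferon-stimulated response element, which 1.22% of all windows hold. These matches describe the letters of short windows and were not tested for binding. The start sites of Ccr9 and Cxcr6 lie 39266 bases apart on chromosome 9, where 4 of the 7 receptors with a window lie.

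The study asked how the absence of STING changes the response of splenocytes to the first injection of CFA and CII. Over all 14 arrays, the genotypes did not differ in any of the 9 receptors by limma at an unadjusted threshold of 0.05, at which 3.48% of all 24908 genes were called. The receptors' log2 fold changes, Sting gt/gt over WT, were above 0 for 6 and below 0 for 3 (5 and 4 under median centring or quantile normalization). Of all 24908 genes, 13565 were above 0 and 11343 below. The median log2 fold change of the receptors was 0.03 against 0.02 over all genes. The largest was 0.30 ± 0.16 (SE, n = 7 per group) for Ccr2, a fold of 1.23, and the smallest 0.01 in size for Ccr6. The adjusted p was 0.9998 for each of the 9 receptors (limma), and 0.00401% of all genes passed the adjusted threshold. With 1 array left out, Cxcr5 passed without WT replicate 3 (-0.39) and Ccr2 without Sting gt/gt replicate 1 (0.39), and in no other case did a receptor pass. In no receptor were the genotypes apart over all arrays, and 0.0442% of all genes had genotypes that did not overlap. These are bulk values, so fewer cells of a type and less RNA per cell cannot be told apart. The 95% interval of the fold ran from 0.97 to 1.57 for Ccr2 and from 0.70 to 1.50 for Ccr9, so differences of that size were within the error of 14 arrays.

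**Figure D1:**
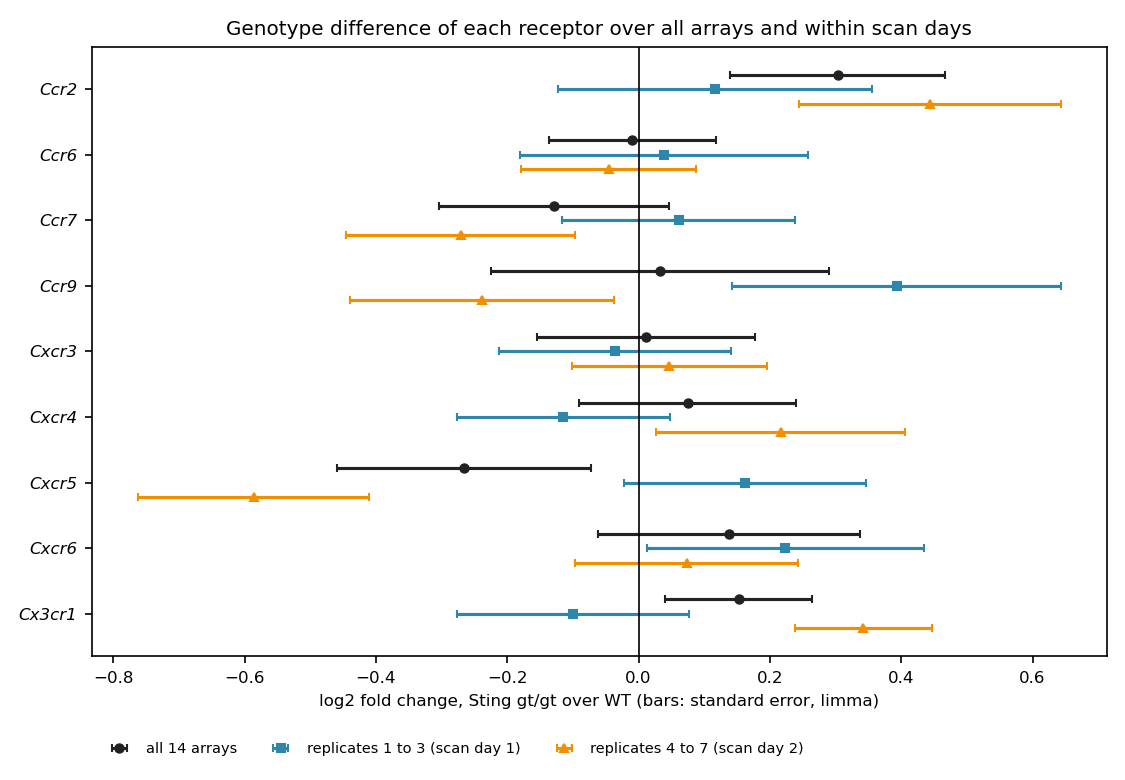
Log2 fold change of each receptor, Sting gt/gt over WT, on the horizontal axis, with its standard error from limma as bars. Black circles show all 14 arrays, blue squares replicates 1 to 3 and orange triangles replicates 4 to 7. Over all arrays the values lie between -0.27 and 0.30. In 7 of the 9 receptors the blue and orange values lie on opposite sides of 0, with Cxcr5 at 0.16 and -0.59.

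The genotypes were then compared within each scan day. On scan day 1 none of the 9 receptors passed the unadjusted threshold, where 3.86% of all genes did. On scan day 2, 2 of 9 passed it (1 higher, 1 lower), where 23.3% of all genes did, so the receptors were called about as often as any gene. With 1 array left out, between 2 and 5 of the 9 passed. The highest count, 5, came without WT replicate 6 (Ccr2, Ccr7, Ccr9, Cxcr5 and Cx3cr1), where 22.1% of all genes passed. Without WT replicates 4, 5 and 7 the counts were 2, 2 and 3. None of the 9 passed the adjusted threshold on scan day 2, which 1.69% of all genes did (limma). The signs of the differences on the 2 days were opposite for 7 of the 9 receptors.

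Cxcr5, the receptor that guides B cells and follicular helper T cells into the follicle, had the lowest fold change of the 9 on scan day 2. Its log2 signal there was 2.48, 2.40, 2.01 and 2.77 in WT replicates 4 to 7 and 2.12, 1.84, 1.56 and 1.80 in Sting gt/gt replicates 4 to 7. WT replicate 6 was the lowest WT array and lay below Sting gt/gt replicate 4, so the genotypes overlapped at 1 pair of arrays. The difference was -0.59 ± 0.18 (SE, n = 4 per group), and its two-sided exact permutation p was 0.0571, where 4 against 4 allows no p below 0.0286. On scan day 1 the signal was 1.74, 1.80 and 1.33 in WT and 1.80, 1.57 and 1.98 in Sting gt/gt replicates 1 to 3, with the genotypes overlapping and a difference of 0.16 ± 0.18. The 2 differences themselves differed by an exact permutation test over the 1400 splits within scan days (p = 0.0257, two-sided), but not after adjustment over all genes (limma, adjusted p = 0.166), where 0.767% of genes passed. Over all 14 arrays, the lowest, median and highest signals were 1.33, 2.01 and 2.77 in WT and 1.56, 1.80 and 2.12 in Sting gt/gt mice, with a log2 fold change of -0.27 and an exact permutation p of 0.218.

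Markers of B cells moved with Cxcr5. On scan day 2, 7 of the 9 B cell markers tested were lower in Sting gt/gt mice at the unadjusted threshold, where 12.3% of all genes were lower, and their mean log2 signal ran from 1.54 to 1.91 in Sting gt/gt and from 1.92 to 2.47 in WT mice. On scan day 1 the order was turned, with 1.73 to 2.22 in Sting gt/gt and 1.38 to 1.73 in WT mice. The signal of Cxcr5 minus this B cell mean differed between the genotypes by -0.11 on scan day 2 and by -0.16 on scan day 1, against -0.59 and 0.16 for Cxcr5 alone. For scan day 2 it ran from 0.02 to 0.24 in Sting gt/gt and from 0.10 to 0.34 in WT mice, so the genotypes overlapped. Of the other marker lists on scan day 2, 5 of 8 plasma cell markers were higher in Sting gt/gt mice, as were 11% of all genes. There 6 of 8 erythroid markers were lower, as were 12.3% of all genes. The means of these 2 lists did not overlap on that day either. The plasma cell mean was 1.5 to 1.95 in Sting gt/gt and 1.09 to 1.41 in WT mice. The erythroid mean was 4.48 to 4.85 in Sting gt/gt and 5.03 to 5.42 in WT mice. No T cell marker of 10 was called on scan day 2, where 23.3% of all genes were. On scan day 1 the plasma cell mean was turned, at 0.86 to 1.04 in Sting gt/gt and 1.09 to 1.13 in WT mice. There 2 of the 8 were called lower, where 3.86% of all genes were called. Of 7 stroma markers 2 were higher on scan day 2 and 3 lower on scan day 1. The lists of monocytes, neutrophils, NK cells and plasmacytoid dendritic cells had at most 1 call in each direction on scan day 2. The part of cell composition in the difference of Cxcr5 was not tested beyond these values.

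**Figure D2:**
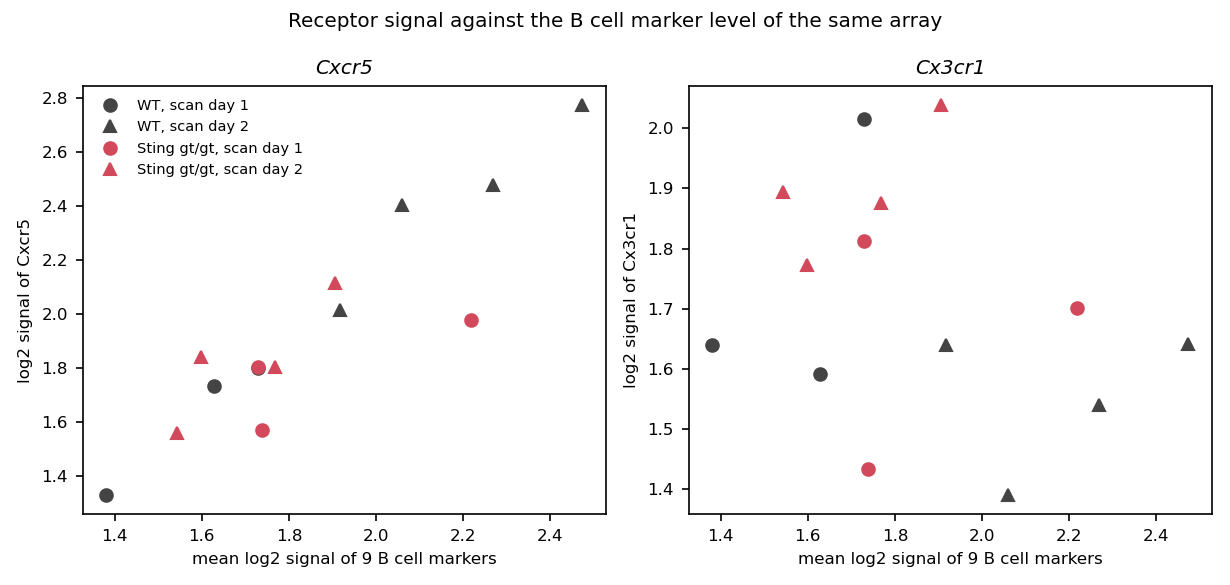
Log2 signal of Cxcr5 (left) and of Cx3cr1 (right) on the vertical axes against the mean log2 signal of 9 B cell markers of the same array on the horizontal axes. Each point is 1 array, grey for WT and red for Sting gt/gt, with circles for scan day 1 and triangles for scan day 2. On scan day 2 the grey triangles lie at B cell means of 1.92 to 2.47 and the red ones at 1.54 to 1.91. Cxcr5 is high where the B cell mean is high, and the red triangles of Cx3cr1 lie above the grey ones.

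Ccr6 is the receptor for Ccl20 on B cells and on some helper T cells. Its log2 signal was 2.58, 2.80 and 3.36 (lowest, median, highest) in WT and 2.56, 2.85 and 3.06 in Sting gt/gt mice. The ranges overlapped almost wholly, with a log2 fold change of -0.01 ± 0.13 (SE, n = 7 per group) and an exact permutation p of 0.938. Its genotype difference on scan day 2 was -0.05, beside -0.48 for the B cell mean. There Ccr6 minus the B cell mean was 0.96 to 1.21 in Sting gt/gt and 0.53 to 0.92 in WT mice. This gap carries the difference of the B cell mean, which did not overlap either (1.54 to 1.91 in Sting gt/gt, 1.92 to 2.47 in WT mice). It is therefore no trait of Ccr6 alone, and how many genes separate in this way was not counted. On scan day 1 it was lower on average in Sting gt/gt mice, but the genotypes overlapped, with 0.85 to 1.14 in Sting gt/gt and 1.11 to 1.64 in WT mice. The difference was 0.13 over all arrays.

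Ccr7, which keeps naive T cells and mature dendritic cells in the T cell zone, was read by 2 probes. The brighter one gave 2.77, 3.09 and 3.81 (lowest, median, highest) in WT and 2.70, 3.11 and 3.43 in Sting gt/gt mice, which overlapped, with a log2 fold change of -0.13 and an exact permutation p of 0.484. The dimmer one gave -0.12 over all arrays, with an exact permutation p of 0.494. Within scan days the dimmer probe moved in opposite directions. On scan day 1 it was -0.40, -0.34 and -0.66 in WT and -0.31, -0.30 and 0.18 in Sting gt/gt mice, so the genotypes did not overlap, as for 9.25% of all probes, and its exact permutation p was 0.10, the smallest that 3 against 3 allows. Scan day 2 gave 0.43, 0.22, -0.18 and 0.32 in WT and 0.01, -0.28, -0.50 and -0.27 in Sting gt/gt mice, a difference of -0.46 with an exact permutation p of 0.0571. The exact permutation p of the difference between the days was 0.01 for this probe and 0.213 for the brighter one, whose differences were 0.06 and -0.27. After adjustment over all tested probes the dimmer probe had a p of 0.137 (limma).

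Ccr2, the receptor for Ccl2 that releases classical monocytes from the marrow, had the highest fold change over all arrays. Its log2 signal was 0.09, 0.81 and 0.94 (lowest, median, highest) in WT and 0.42, 1.13 and 1.21 in Sting gt/gt mice. The 2 lowest of the 14 arrays were both WT (replicates 5 and 4) and the 4 highest were all Sting gt/gt, with the rest mixed. Those 2 WT arrays shared 1 slide, which held no other array. The exact permutation p was 0.0897, the lowest of the 9 receptors, where 7 against 7 allows no p below 0.000583. Among replicates 1 to 3 the difference was 0.12 ± 0.24 and among replicates 4 to 7 it was 0.44 ± 0.20, with exact permutation p of 0.60 and 0.143. The second was past the unadjusted limma threshold under median centring (0.48) and normexp background correction (0.42), but not by quantile normalization (0.40), in the deposited table (0.41) or as the mean of probes (0.44). With 1 array left out it ran from 0.29, without WT replicate 5, to 0.56, without WT replicate 6, and was called in 3 of 8 cases. WT replicates 6 and 7, on the other WT slide of that day, had 0.90 and 0.81. These lay within the 0.74 to 1.21 of Sting gt/gt replicates 4 to 7. The part of slide in this difference was not tested, as each slide of scan day 2 held a single genotype. Over all arrays, the log2 fold change of Ccr2 was 0.18 when slide was modelled as random. It was -0.047 when slide was modelled as fixed. That fit rests on the 2 slides with both genotypes, both of scan day 1. It therefore says nothing on the difference among replicates 4 to 7. Of the 8 monocyte markers tested, 6 lay above 0 over all arrays, as did 13565 of all 24908 genes. The median of the 8 was 0.18, and 1 was called higher in Sting gt/gt mice (Ms4a6c, 0.28), where 3.48% of all genes were called. Under median centring none of the 8 was called. Their mean ran from 2.36 to 2.83 in Sting gt/gt and from 2.20 to 2.59 in WT mice, and its part in the value of Ccr2 was not tested.

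Cx3cr1, the receptor for the membrane-bound chemokine Cx3cl1 on patrolling monocytes and some lymphocytes, was the other receptor called on scan day 2. Its brighter probe gave 1.54, 1.39, 1.64 and 1.64 in WT replicates 4 to 7 and 2.04, 1.77, 1.89 and 1.88 in Sting gt/gt replicates 4 to 7. All 4 Sting gt/gt arrays lay above all 4 WT arrays, as 1 of the 9 receptors and 14.7% of all genes did not overlap on that day. The difference was 0.34 ± 0.10 (SE, n = 4 per group), a fold of 1.27, with an exact permutation p of 0.0286, the smallest that 4 against 4 allows, and an adjusted p of 0.105 (limma). On scan day 1 the genotypes overlapped, with 1.59, 2.02 and 1.64 in WT and 1.81, 1.43 and 1.70 in Sting gt/gt mice. The exact permutation p of the difference between the days was 0.0414, with an adjusted p of 0.24 in limma. The dimmer probe did not show the difference of scan day 2: it gave -2.24 to -1.79 in WT and -2.14 to -1.98 in Sting gt/gt mice, a difference of -0.002 ± 0.12. Pearson's r between the 2 probes was 0.24 over the 6 arrays of scan day 1 and 0.18 over the 8 arrays of scan day 2 (a description).

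Cxcr3, the receptor for the interferon-induced chemokines Cxcl9 and Cxcl10 on effector T cells and NK cells, had a log2 signal of -0.16, 0.25 and 0.60 (lowest, median, highest) in WT and -0.27, 0.28 and 0.67 in Sting gt/gt mice. The ranges were nearly the same, with a log2 fold change of 0.01 ± 0.17 and an exact permutation p of 0.949. The 95% interval of its fold ran from 0.79 to 1.29.

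Cxcr6, the receptor for Cxcl16 on activated and tissue-resident T cells and NKT cells, was read by 2 probes that moved together, with Pearson's r of 0.984 on scan day 1 and 0.991 on scan day 2 (a description). The brighter probe gave 0.56, 1.11 and 1.77 in WT and 0.53, 1.28 and 1.67 in Sting gt/gt mice (lowest, median, highest). The genotypes overlapped, with log2 fold changes of 0.14 and 0.13 by the 2 probes and exact permutation p of 0.515 and 0.584.

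Ccr9, the receptor for Ccl25 on thymocytes, gut-homing lymphocytes and plasmacytoid dendritic cells, had a log2 signal of -2.17, -1.34 and -0.57 in WT and -1.92, -1.21 and -0.68 in Sting gt/gt mice (lowest, median, highest). The genotypes overlapped, with a log2 fold change of 0.03 ± 0.26 and an exact permutation p of 0.92. Its standard error was the widest of the 9 receptors. Its difference was 0.39 among replicates 1 to 3 and -0.24 among replicates 4 to 7, with an exact permutation p of 0.109 for the difference between the days.

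Cxcr4, the receptor for Cxcl12 that retains leukocytes in the marrow and plasma cells in the red pulp, was read by 2 probes as well. The brighter one gave 0.39, 1.03 and 1.39 in WT and 0.57, 1.13 and 1.47 in Sting gt/gt mice (lowest, median, highest), with a log2 fold change of 0.07 and an exact permutation p of 0.673. The dimmer one gave -3.57, -1.92 and -1.74 in WT and -3.42, -2.81 and -1.80 in Sting gt/gt mice, with -0.16 and an exact permutation p of 0.721. The genotypes overlapped by both probes, and the signs differed.

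**Figure D3:**
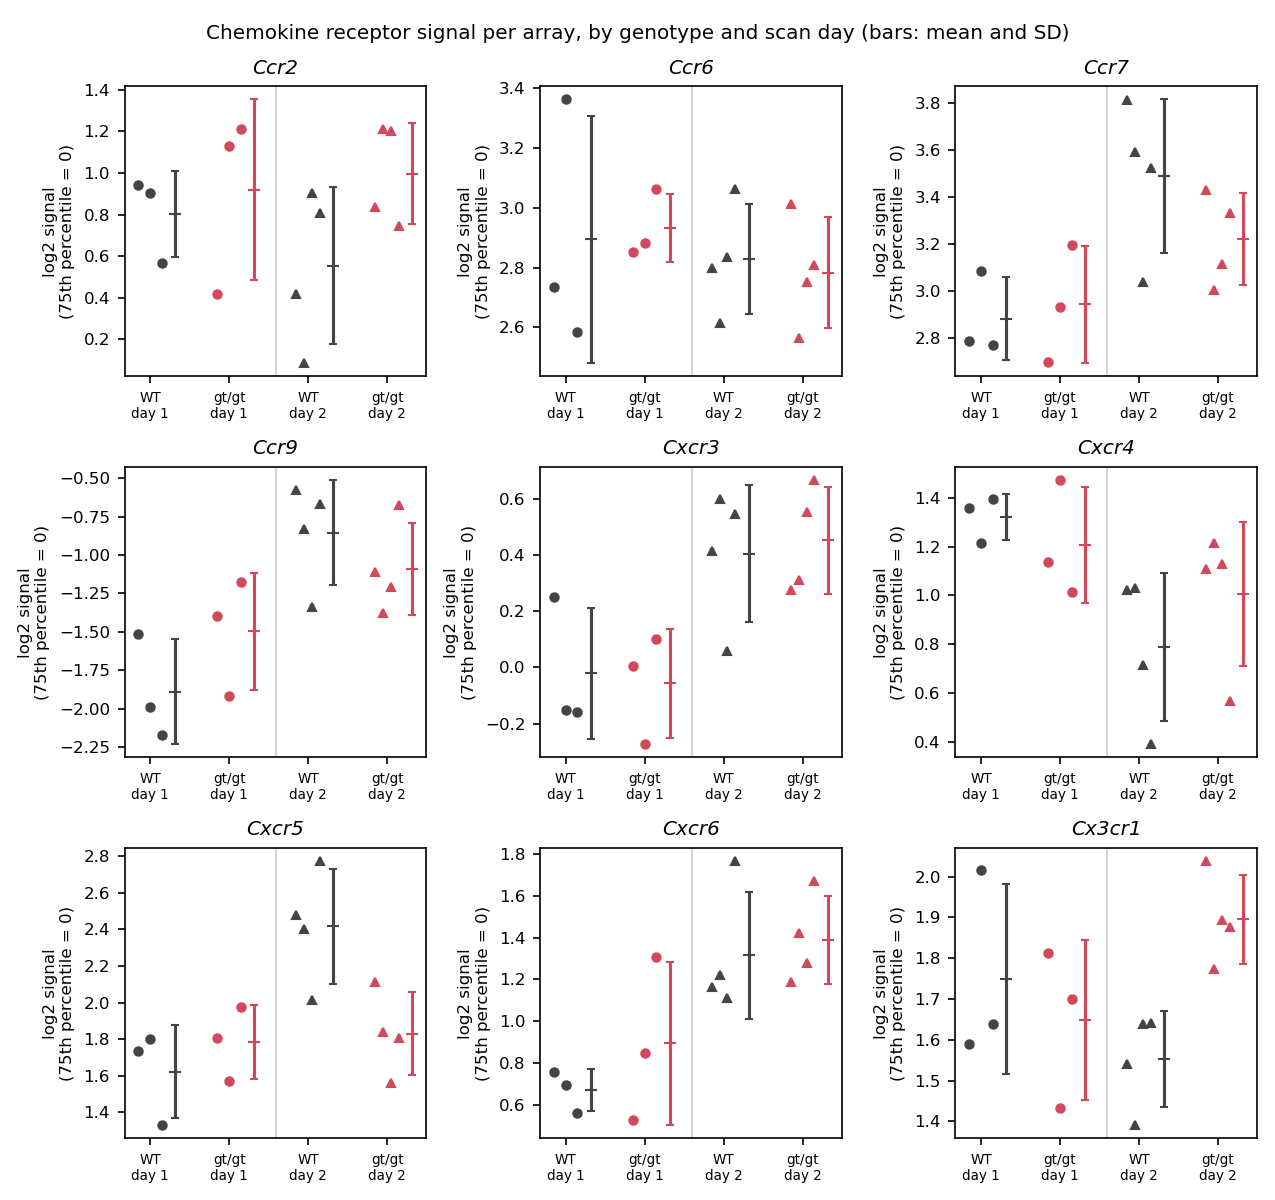
Log2 signal of each receptor (brighter probe where it has 2) on the vertical axis, relative to the 75th percentile of the array. Each point is 1 array, grey for WT and red for Sting gt/gt, with circles for scan day 1 (3 per genotype) and triangles for scan day 2 (4 per genotype), and the bars give the mean and SD. Ccr9, Cxcr3 and Cxcr6 sit higher on scan day 2 in both genotypes, and the genotypes of Cx3cr1 overlap on scan day 1 and not on scan day 2.

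The scan days differed more than the genotypes. Arrays of scan day 2 came from other mice and lay on other slides than those of scan day 1. Scan day, mice and slides therefore cannot be told apart. In a limma model that also held genotype, 5 of the 9 receptors passed the adjusted threshold of 0.05 for scan day, where 38.8% of all genes did, 4 of them higher on scan day 2, as were 17.1% of all genes, and 1 lower, as were 21.6%. Ccr9 was higher by 0.72 ± 0.18 (log2 difference, SE; 6 against 8 arrays), Cxcr6 by 0.57 ± 0.14, Cxcr3 by 0.47 ± 0.11 and Ccr7 by 0.44 ± 0.13, with adjusted p of 0.00652, 0.00448, 0.00504 and 0.0172 (limma). Cxcr4 was lower by its brighter probe, at -0.37 ± 0.14 with an adjusted p of 0.047 (limma), and this call was lost when any 1 of 7 arrays was left out and under median centring (-0.19), while the difference was 0.47 as the mean of its probes. For Cxcr5 the difference was 0.42 ± 0.16, with an adjusted p of 0.0545 (limma), and it was called under median centring at 0.60, with an adjusted p of 0.00446 (limma). In none of the 9 receptors were the scan days apart by the brighter probe, as they were in 15.7% of all genes. The median size of the scan-day difference was 0.42 over the 9 receptors and 0.27 over all genes. When the arrays were centred on their median instead, the median of all genes moved from -0.01 to 0.17, and the median of the 9 receptors from 0.42 to 0.60.

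The 2 probes of Cxcr4 went in opposite directions between the scan days. The dimmer probe lay between -3.57 and -3.04 on the 6 arrays of scan day 1 and between -2.81 and -1.74 on the 8 arrays of scan day 2, without overlap, as did 15.5% of all probes. It was higher by 1.31 ± 0.15 on scan day 2, with an adjusted p of 1.5e-05 over all probes (limma), of which 39% passed, while the brighter probe fell by 0.37 on the log2 scale. The brighter minus the dimmer signal ran from 4.17 to 4.90 on scan day 1 and from 2.31 to 3.38 on scan day 2. In the table of log2 values that the authors deposited, the dimmer probe's scan-day difference was 0.46 and the brighter probe's -0.04. In that table none of the 9 receptors passed the adjusted threshold for scan day (limma), which no other gene passed either, and the difference of Ccr9 was 0.20 in place of 0.72. What was done to that table was not given in the sources used here, and the genotype differences of the 9 receptors in it lay within 0.028 of those from the scanner files.

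**Figure D4:**
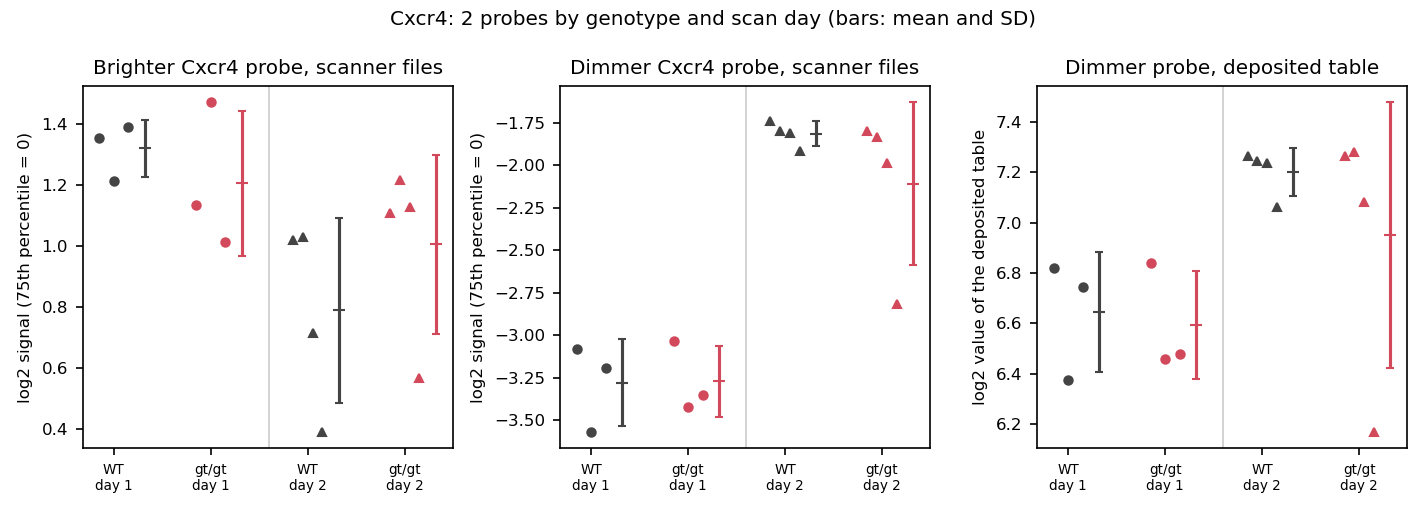
Log2 signal of the brighter (left) and the dimmer (middle) probe of Cxcr4 relative to the 75th percentile of each array, and the dimmer probe in the deposited log2 table (right), on the vertical axes. Points are arrays by genotype (grey WT, red Sting gt/gt) and scan day, and bars give the mean and SD. The dimmer probe lies 1.31 higher on scan day 2 in the scanner files and 0.46 higher in the table, while the brighter probe lies 0.37 lower in the scanner files.

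Within genotype and scan day, some receptors varied together. After the mean of each genotype and scan day was subtracted, Ccr9 and Cxcr3 had a Pearson's r of 0.85 over the 14 arrays and Ccr6 and Cx3cr1 0.79, while Cxcr4 and Cxcr6 had -0.64. These are descriptions over arrays that share slides and days. Chosen from all tested genes with a symbol by the same measure, the 3 genes most like each receptor were Gpr171, Gimap1 and Bcar3 for Cxcr5 (r from 0.94 to 0.95) and Xkrx, Vipr1 and Mfng for Ccr7 (0.96 to 0.98). For Ccr6 they were Clk1, 5830411N06Rik and Notch2 (0.92 to 0.94), and for Cxcr3 Wfs1, AI837181 and Bmyc (0.89 to 0.92). Cxcr6 was most like Ddx58, Gbp4 and Zfp397 (0.93 to 0.95), Ccr9 like Akr1c12, Acvr2a and Lmbrd2 (0.94 to 0.97), and Cxcr4 like Bahd1, Slc25a24 and Spast (0.95 to 0.96). Ccr2 was most like Tiam2, Trdmt1 and Fgd4 (0.91 to 0.95). Cx3cr1 had the least close matches, Pdcd1lg2, Setbp1 and Atxn1l (0.83 to 0.88). As each gene was picked as the closest of so many, a high r comes in part from the choice, and no chance level was computed. Without subtracting the means, r was 0.05 for Setbp1 with Cx3cr1 and 0.02 for Spast with Cxcr4, but 0.97 for Mfng with Ccr7.

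The rest of the chemokine system was read from 4 lists. Of 12 tested ligands of the 9 receptors, none was called between the genotypes, and their median fold change was 0.04 on the log2 scale. They ran from -0.75 ± 0.48 for Ccl7, a Ccr2 ligand, to 0.57 ± 0.33 for Ccl12, another Ccr2 ligand, and these were well above background on 7 and 10 of the 14 arrays. Cxcl13, the ligand of Cxcr5, had 0.11 ± 0.18 and Cx3cl1, the ligand of Cx3cr1, 0.33 ± 0.26. On scan day 2 Cx3cl1 was the 1 ligand of 12 called, at 0.75 ± 0.27 with an adjusted p of 0.143 (limma), where 11% of all genes were called higher at the unadjusted threshold. Between scan days 7 of the 12 ligands were higher on scan day 2 after adjustment (limma), as were 17.1% of all genes. These 7 were Ccl2 and Ccl7 (ligands of Ccr2), Ccl25 (of Ccr9), Cxcl9 and Cxcl10 (of Cxcr3), Cxcl12 (of Cxcr4) and Cxcl16 (of Cxcr6).

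Of 11 other chemokine receptors tested, none was called between the genotypes, and their median was 0.16. The highest was Ccr10, a receptor of plasma cells and skin-homing T cells, at 0.38 ± 0.21, and the lowest Ackr1, a scavenger of chemokines on red cells and venules, at -0.40 ± 0.22. Of 36 genes that act below the receptors, 1 was called, where 3.48% of all genes were. This was Arrb2, which encodes β-arrestin 2 and uncouples and internalises the receptors. Its log2 signal was 2.08, 2.41 and 2.72 (lowest, median, highest) in WT and 2.13, 2.75 and 3.17 in Sting gt/gt mice, which overlapped, with a difference of 0.33 ± 0.15, an exact permutation p of 0.0449 and an adjusted p of 1 (limma). It was not called when arrays were centred on their median. The lowest of the 36 was Rgs13, a brake on G protein signalling in germinal centre B cells, at -0.18 ± 0.46. Of the 36, 29 were above 0 and 7 below, with a median of 0.06, where 13565 of all 24908 genes were above 0 and 11343 below. Of 13 other homing receptors none was called, from -0.26 for Cd69, which holds activated lymphocytes in the tissue, to 0.21 for S1pr4, a receptor for the egress signal sphingosine-1-phosphate. On scan day 2 more of these genes passed the unadjusted threshold, as did 23.3% of all genes. Of the 11 other chemokine receptors 3 were higher (Ccr10 at 0.78, Cxcr1 at 0.68 and Cxcr2 at 0.47) and 2 lower (Ccrl2 at -0.56 and Ackr1 at -0.57) in Sting gt/gt mice. Among the 36 genes below the receptors 7 were higher and 0 lower, and among the 13 homing receptors 2 were higher and 0 lower, where 11% of all genes were higher and 12.3% lower. These counts depended on the scaling. For the 36 genes, 5 were higher and 2 lower under quantile normalization and in the deposited table. Median centring gave 9 and 0 and normexp 8 and 0. For the 13 homing receptors, 1 was higher and 1 lower under quantile normalization.

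**Figure D5:**
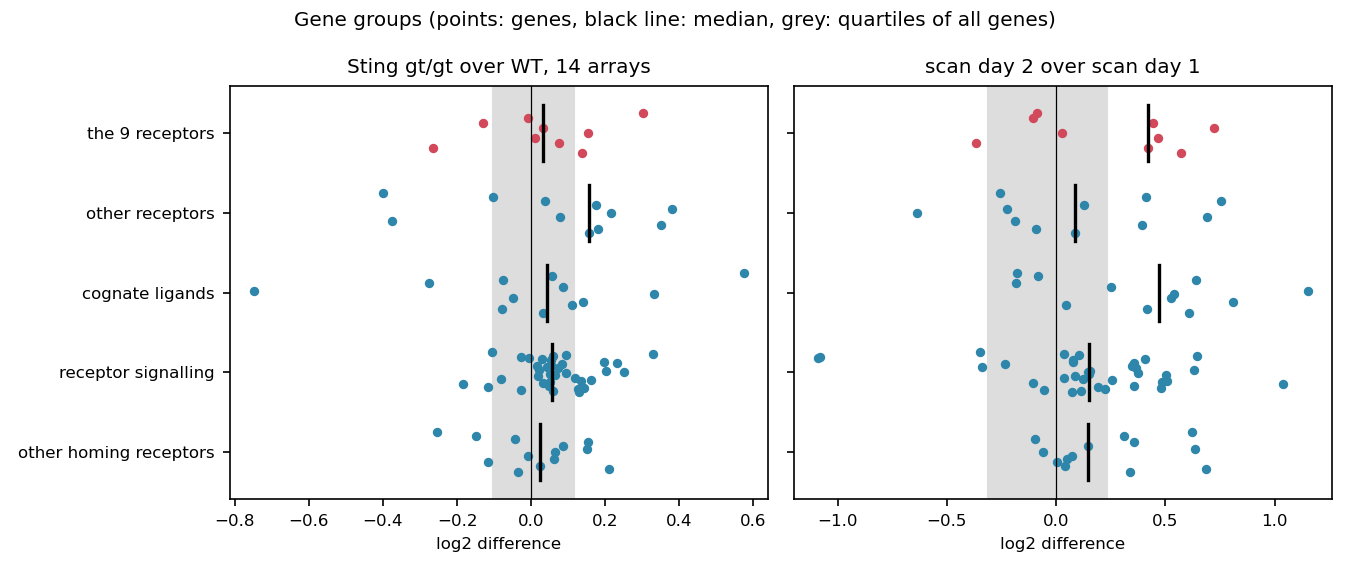
Log2 difference of each tested gene on the horizontal axes, between Sting gt/gt and WT over 14 arrays (left) and between scan day 2 and scan day 1 (right), for the 9 receptors (red) and 4 related lists (blue). Points are genes, the black line is the median of a list, and grey marks the quartiles of all 24908 genes. The medians of the genotype difference lie between 0.02 and 0.16, and those of the scan-day difference between 0.09 and 0.47.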

How the data were processed

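RNA of splenocytes was amplified, labelled with Cy3 and hybridised to one-colour Agilent arrays. The authors deposited 1 scanner file per array with processed signal intensity, background-corrected per spot and not normalized between arrays. Per the file headers and the submitters' notes, these came from Agilent Feature Extraction 11.0.1.1. The authors also deposited a table of log2 values whose normalization was not given in the sources used here. Its columns had medians of 5.48 to 5.52 and correlated with the log2 intensity of the same array at 0.997 to 0.999. Here the intensity was put on the log2 scale, flagged outlier spots were left out, spots of 1 probe were averaged and the 75th percentile of each array was subtracted. Probes well above background on 7 or more of the 14 arrays were tested (31766 of 56605). Probes were named by accession through RefSeq (32994 matched, 58.3%), and the brightest tested probe stood for a gene.

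Groups came from the sample titles, and the labels call the samples replicates of each genotype. Sting gt/gt and WT arrays were compared by limma 3.58.1 (lmFit, eBayes) in R 4.3.3 across all genes, with Benjamini-Hochberg adjustment, over all 14 arrays, within each scan day, and with scan day or its interaction with genotype as a term. The fit was run on simulated data that held a scan-day shift but no slide effect. That run therefore does not cover arrays that share a slide. Single receptors were also compared by two-sided exact permutation tests (numpy 2.4.6). These ran over the 3432 splits of 14 arrays, or the 1400 splits within scan days. Replicate numbers were shared by the genotypes: deviations of same-numbered arrays correlated at 0.155 to 0.533, and at -0.41 to 0.25 after scan-day means were removed. The comparisons reported carry no replicate block, and a fit with the number as a block was run as an alternative. Named were all probes of the 9 receptors, Sting1, the 3 genes most like each receptor, and, of each related list, the called genes and the highest and lowest fold change. Cxcl13, Cx3cl1, the 7 ligands that differed between scan days the other receptors called on scan day 2 and the marker Ms4a6c were named after their values were seen. The receptors, lists and markers were chosen with earlier results of these data known. Promoter windows came from RefSeq (GRCm38.p6, 7 of 9 receptors). The number of arrays limits the precision. No sequencing depth applies.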

Additional observations from a re-analysis of the deposited data

Results flagged for a closer look

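The genotype difference of Cxcr5 changed between scan days, from 0.16 on scan day 1 to -0.59 on scan day 2, with an exact permutation p of 0.02571 over splits within days. Cx3cr1 by its brighter probe changed from -0.10 to 0.34, with an exact permutation p of 0.04143, and Ccr7 by its dimmer probe from 0.32 to -0.46, with an exact permutation p of 0.01. In all, 13 probes were tested in this way. No difference between the days passed adjustment in limma, over all genes for the brightest probes or over all tested probes for the dimmer ones. The dimmer probe of Ccr7 had an adjusted p of 0.137 over all tested probes (limma). With Benjamini-Hochberg adjustment over the 9 receptors, the exact permutation p of Cxcr5 and of Cx3cr1 was 0.186.

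Single arrays stood apart in 4 of 52 groups of arrays searched, where chance alone sets about 1 group in 20 apart by this measure. The gap of the array to its nearest neighbour, as a share of the whole range of its group, was 0.598 for WT replicate 2 among the 7 WT arrays by the brighter probe of Cx3cr1, which was the highest at 2.02. It was 0.835 for Sting gt/gt replicate 7 among Sting gt/gt replicates 4 to 7 by the brighter probe of Cxcr4, the lowest at 0.57. For Cxcr6 it was 0.836 and 0.861 by the 2 probes for WT replicate 7 among WT replicates 4 to 7, the highest at 1.77 and 1.37.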

How the results depend on the processing

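Of 234 genotype differences of the 9 receptors recomputed under other settings, 204 kept their sign and their side of the unadjusted threshold and 2 newly passed it (Cxcr5 without WT replicate 3 and Ccr2 without Sting gt/gt replicate 1), so that 0 to 1 receptors were called with an array left out. The sign turned in 28, of at most 0.124 in size. With an array left out, the log2 fold change ran from -0.055 to 0.075 for Ccr6, from -0.114 to 0.153 for Ccr9, from -0.060 to 0.096 for Cxcr3 and from -0.030 to 0.162 for Cxcr4. Cxcr3 turned to -8.0e-05 under median centring, -0.00098 under quantile normalization, -0.0024 under normexp and -0.064 when slide was a random block, Ccr6 to 0.014 under normexp and 0.023 when slide was a random block, and Cxcr4 to -0.045 as the mean of its probes. With slide as a fixed block, which rests on the 2 slides with both genotypes, Ccr2 turned to -0.047, Ccr6 to 0.016, Cxcr3 to -0.075, Cxcr4 to -0.052, Cxcr5 to 0.12 and Cx3cr1 to -0.083, and Ccr9 was 0.31. With slide as a random block, Ccr2 was 0.18, Cxcr5 -0.13 and Cx3cr1 0.050.

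With the replicate block, which pairs arrays by number, 1416 genes were called in place of 868, 1812 when the model held scan day, 1928 in the deposited table, 445 when slide was a random block, and 496 to 1967 with an array left out. The replicate block changed no call of a receptor. Of the 868 genes 53.5% were higher in Sting gt/gt mice, and 30.6% of those called under median centring. Genes whose genotype difference differed between scan days numbered 191, against 68 under median centring, 119 under normexp, 110 in the deposited table, 374 with probes well above background on all 14 arrays, 125 with the mean of the probes, and 0 to 752 with an array left out.

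Within scan day 2, 2 to 5 receptors were called with an array left out and 1 with the mean of the probes, where Cx3cr1 fell to 0.17. Cxcr5 and Cx3cr1 were called in each of the 8 cases with 1 array left out. For scan day itself, 0 receptors were called in the deposited table, where Ccr6 turned to 0.081 and Cx3cr1 to -0.044. Ccr2 turned to 0.092 and Ccr6 to 0.071 under median centring, Cxcr4 to 0.47 as the mean of its probes, and Cx3cr1 ran from -0.049 to 0.11 with an array left out. The cause of these changes was not tested.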

Other observations

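Sting gt/gt replicate 7 was the lowest of the 4 Sting gt/gt arrays of scan day 2 by both probes of Cxcr4 (0.57 and -2.81), while it was the highest of them for Cxcr3 (0.67), Cxcr6 (1.67) and Ccr9 (-0.68). WT replicate 7 was likewise the lowest WT array for Cxcr4 by its brighter probe (0.39) and the highest for Cxcr6 (1.77) and Cxcr5 (2.77).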
